A study of Aspergillus niger with 8 samples.

Results

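Wheat straw and carbon starvation were compared at an equal time, 6 h after mycelium of Aspergillus niger N402, a filamentous fungus of soil and decaying plants, had been taken off glucose. The comparison rests on 4 of the 8 libraries of the study, chosen by their sample titles alone: cultures A and B with straw and cultures A and B without a carbon source. The mycelium of both groups had grown for 48 h on 1% glucose in shake flasks at 28 °C and 150 rpm, was filtered, washed and moved to fresh medium holding either 1% ball-milled wheat straw or no carbon source. Straw and starvation thus share the loss of glucose, the transfer and the 6 h that followed, and differ by the presence of straw. The other libraries, cultures A and B at 48 h of glucose and at 24 h of starvation, were part of the statistical fit, and their levels are given beside some genes. Each condition is 2 cultures, no statement ties a letter to a shared flask or day, and the p-values measure the spread between these cultures, which may be in part technical.

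Wheat straw is mostly cellulose and arabinoxylan, polymers that must be cut outside the cell before their sugars can be taken up. In A. niger the genes for many of the enzymes that do this are switched on by the regulator XlnR when xylose or related small sugars enter the cell, and are shut down by the repressor CreA while glucose lasts. A fungus without any carbon source breaks down its own reserves and cell wall. Moving mycelium from glucose to straw changes both conditions at once, since glucose is lost and a new substrate appears, and the starved cultures of the same age carry the first change without the second.

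Reads on annotated genes numbered 450755 and 979256 on straw and 471700 and 358403 under starvation, or 1.97% and 3.40% against 1.47% and 1.79% of all reads. Because this share differed between the groups, levels below are RPKM values recomputed with the reads on genes as the library total (genic RPKM), and not the deposited RPKM, which divides by all reads. Differences are edgeR's log2 estimates of straw over starvation ± an approximate standard error (SE). This SE was calculated back from the test, as the size of the estimate over the square root of the F statistic. Over 6357 genes with enough reads to test, log2 levels of the cultures correlated at 0.919 within straw, 0.870 within starvation and 0.638 to 0.686 between the groups. Genes were called higher or lower in straw at an edgeR adjusted p below 0.05 and a fold of at least 3. By this rule 387 genes were higher in straw (6.09% of those tested) and 484 were lower (7.61%), with median folds of 7.77 and 7.11. These shares are the background for all counts of called list members below. The groups did not overlap for 386 of the 387 and 481 of the 484, while among all tested genes both straw cultures lay above both starved cultures in 29.8% and below them in 24.7%. Straw B was the most deeply read library, and without it 249 genes were called higher and 233 lower. With the fold taken from the deposited RPKM in place of edgeR's estimate, 464 were higher and 326 lower, so which direction held more genes depended on this choice, as it did on straw B. The median difference of all tested genes was 0.01 on the log2 scale.

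**Figure D1:**
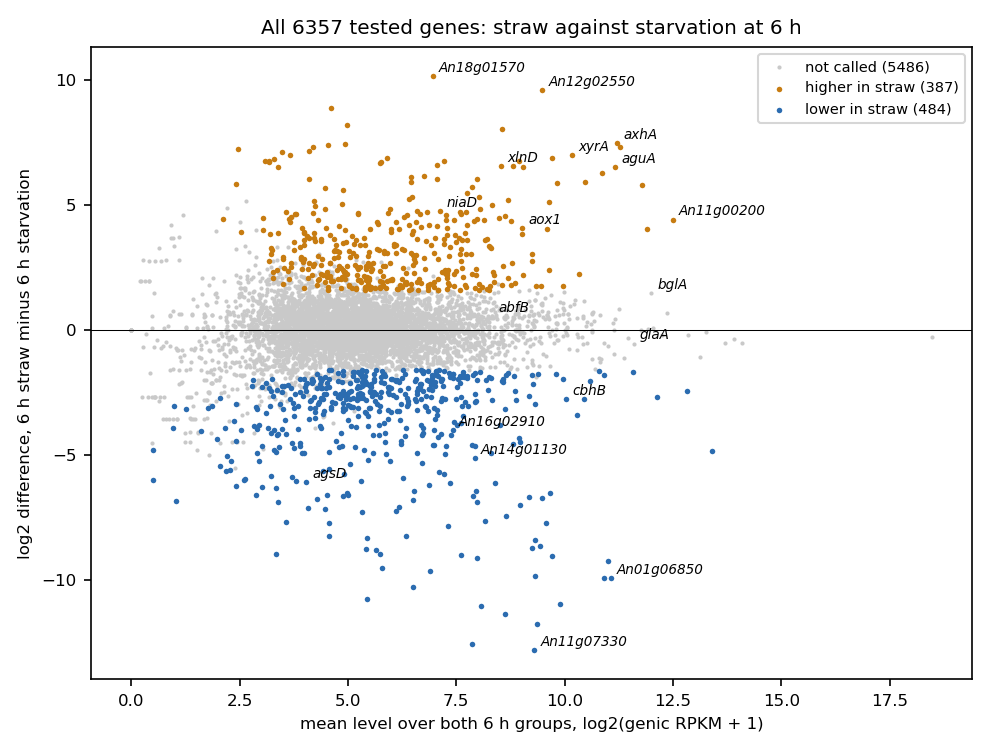
Log2 difference between 6 h straw and 6 h starvation (vertical axis) against the mean level of both groups as log2(genic RPKM + 1) (horizontal axis), with 1 point for each of the 6357 tested genes. The 387 genes called higher in straw (orange) include enzymes of xylan breakdown at high levels, and the 484 called lower (blue) include genes with hardly a read on straw, whose plotted size depends on the count that edgeR adds to each gene.

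Endoxylanases cut the xylan backbone and β-xylosidases release xylose from the fragments. Of the 9 genes listed for this step, 6 of 7 tested were higher in straw, against 6.09% of all tested genes, and none was lower, with a median log2 difference of 6.04 against 0.01 over all tested genes. This list and those of the other plant polysaccharides hold mainly genes that the study tabulated because they rose here or on straw at a later time, so their counts are not independent evidence. Expression of the endoxylanase gene xynA stood at 6557 and 3314 on straw and 40.8 and 16.1 under starvation (log2 difference 7.32 ± 0.62, edgeR adjusted p = 1.59e-07), a 159-fold difference. The endoxylanase gene xynB was at 685 and 304 on straw and 7.0 and 6.91 under starvation (log2 difference 6.04 ± 0.67, edgeR adjusted p = 3.29e-06). In both, each straw culture was far above each starved culture, and the starved cultures were near the glucose levels of 10.6 and 21.6 for xynA and 3.9 and 19.6 for xynB. The β-xylosidase gene xlnD stood at 932 and 524 on straw and 9.62 and 4.75 under starvation (log2 difference 6.55 ± 0.58, edgeR adjusted p = 2.65e-07), and An08g01900, a putative β-xylosidase gene, at 501 and 511 on straw and 8.53 and 16.0 under starvation (log2 difference 5.32 ± 0.49, edgeR adjusted p = 4.35e-07). An15g04550, a putative endoxylanase gene, had 106 and 133 reads on straw and 2 and 0 under starvation, a ratio of pooled reads of 69.4 (19.0 to 576) with its 95% interval, which covers counting error only, and the fitted log2 difference of 6.07 became 9.65 without starvation A. The difference was smallest among the called members for xarB, a putative xylosidase-arabinosidase gene, at 129.7 and 115 on straw and 20.7 and 5.91 under starvation (log2 difference 3.07 ± 0.52).

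Not every listed gene of the xylan backbone followed. The GH43 gene An11g03120 had 2 and 8 reads on straw and 7 and 18 under starvation and the opposite sign (log2 difference −2.24 ± 0.80), without a call (edgeR adjusted p = 0.0659), although it was called lower in 2 alternatives, when all genes were kept and when the culture letter was a block. Too sparsely read to test were the putative β-xylosidase gene An02g00140, with 4 and 5 reads on straw and 7 and 2 under starvation, and the GH11 gene An01g14600, with 2 and 0 reads on straw and 0 and 3 under starvation. No call among the tested xylan backbone genes was lost when any of the 4 libraries was left out.

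Side groups of arabinoxylan are removed by arabinofuranosidases, glucuronidases and esterases. Of 6 listed genes, all tested, 5 were higher in straw, with a median log2 difference of 7.0. The feruloyl esterase gene An12g02550 showed the largest difference, with 638 and 880 reads on straw and 1 and 0 under starvation, a pooled ratio of 881 (158 to 34827). Feruloyl esterase gene faeA had 493 and 360 reads on straw and 2 and 0 under starvation, a pooled ratio of 248 (68.3 to 2048). The starved cultures left both genes at 0, 1 or 2 reads. The arabinoxylan arabinofuranohydrolase gene axhA was at 5831 and 3627 on straw and 34.6 and 13.7 under starvation (log2 difference 7.49 ± 0.59, edgeR adjusted p = 8.52e-08), and the α-glucuronidase gene aguA at 5374 and 3740.3 on straw and 67.8 and 25.3 under starvation (log2 difference 6.52 ± 0.63, edgeR adjusted p = 7.02e-07). The acetyl xylan esterase gene axeA was at 1856 and 1237 on straw and 55.2 and 26.1 under starvation (log2 difference 5.14 ± 0.58). None of these 5 calls was lost on leaving out a library.

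The remaining side group gene behaved differently. Transcript levels of abfB, encoding an α-L-arabinofuranosidase, were 473 and 302 on straw and 275 and 229 under starvation, and the difference was not called although both straw cultures were above both starved ones (log2 difference 0.55 ± 0.44, edgeR adjusted p = 0.453). On glucose abfB was at 2.67 and 0.959, so that both 6 h groups lay well above glucose, and at 24 h of starvation it was at 3.03 and 10.6. Comparisons of the 6 h groups with glucose share the glucose libraries, and those levels are given only side by side.

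**Figure D2:**
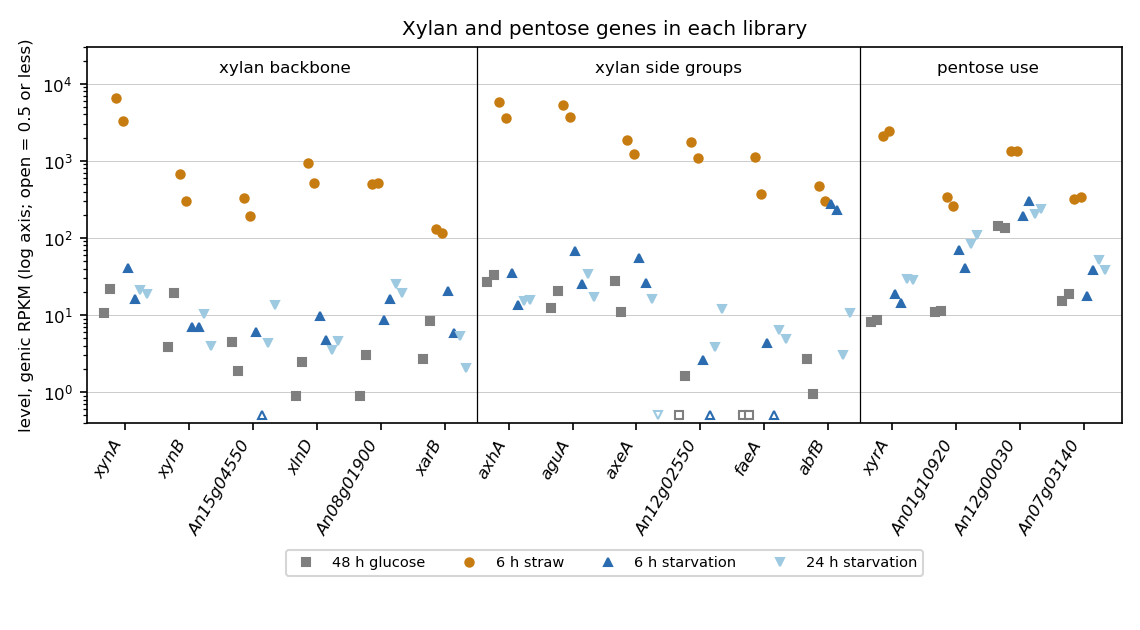
Level of 16 genes of xylan breakdown and pentose use in each library, in genic RPKM on a log axis, with 2 points (cultures A and B) for each condition and open symbols for levels of 0.5 or less. Straw cultures (orange circles) stand above all other cultures for all 16 genes, most closely followed for abfB, whose 6 h starvation cultures (blue triangles) reach 229 and 275 beside 302 and 473 on straw.

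Xylose released from xylan is reduced to xylitol by xylose reductase, and arabinose enters through similar reductases and dehydrogenases. Of 7 listed pentose genes 4 of 6 tested were higher in straw, with a median log2 difference of 2.37. Terms for xylose and arabinose use were enriched in the study on early straw and not under early starvation. Against glucose, 5 of the 6 tested genes were called higher on straw and 2 under starvation. The count for this list is therefore not independent evidence. The D-xylose reductase gene xyrA stood at 2109.8 and 2458 on straw and 18.6 and 14.3 under starvation (log2 difference 7.02 ± 0.50, edgeR adjusted p = 7.31e-08), a 129.9-fold difference, with 8.06 and 8.68 on glucose. An01g10920, annotated as a putative L-arabitol dehydrogenase gene, was at 342 and 260.4 on straw and 69.4 and 40.9 under starvation (log2 difference 2.35 ± 0.41). Under the pentose metabolic term An12g00030 was at 1349 and 1333 on straw and 193 and 299 under starvation (2.39 ± 0.39) and An07g03140 at 317 and 344 on straw and 17.6 and 38.1 under starvation (3.53 ± 0.44). These 4 calls were kept without any of the 4 libraries.

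Genes of uptake and of a later step were not called. The putative xylose permease gene An01g00850 was at 424 and 522 on straw and 423 and 499.7 under starvation, a log2 difference of −0.02 ± 0.69 (edgeR adjusted p = 0.989), against 50.1 and 16.8 on glucose. Its straw and starved cultures overlapped. Ribose-5-phosphate isomerase gene An02g02930 was at 477 and 818 on straw and 406 and 431 under starvation (0.57 ± 0.41, not called). An01g14880, a putative L-arabinose reductase gene, had no read in the 4 libraries. For galactose, which straw holds in smaller amounts, 2 of 3 tested genes were higher: An11g10890, at 762 and 782 on straw and 96.1 and 135 under starvation (log2 difference 2.68 ± 0.39), and An02g11320, at 495 and 593 on straw and 105 and 99.7 under starvation (2.34 ± 0.46). The galactose term was likewise enriched in the study at 6 h straw only. All 3 tested genes were called higher than glucose on straw and 0 under starvation, so this count is not independent evidence either.

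Cellobiohydrolases and endoglucanases attack the cellulose chain. Of 11 listed genes 6 of 8 tested were higher in straw and 1 was lower, with a median log2 difference of 4.49. An12g02220, a putative GH6 cellobiohydrolase gene, was at 1626 and 466 on straw and 19.3 and 0 under starvation (log2 difference 6.53 ± 0.81, edgeR adjusted p = 1.17e-05, and 12.67 without starvation A, where no read was left in the starved group). Its putative GH6 relative An08g01760 was at 711 and 125 on straw and 12 and 4.51 under starvation (log2 difference 5.48 ± 0.78). Endoglucanase gene eglA was at 1332 and 273 on straw and 28.4 and 10.7 under starvation (5.21 ± 0.72) and eglB at 680.5 and 339.6 on straw and 19.9 and 13.1 under starvation (4.84 ± 0.56). Straw A was the higher straw culture for each of these, and both straw cultures stood above both starved cultures. The endoglucanase gene An01g03340 is specific for xyloglucan but was counted in this list and not in that of xyloglucan. It was at 251 and 138 on straw and 15.5 and 3.39 under starvation (4.15 ± 0.66) and is among the 6 called higher.

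The GH7 cellobiohydrolase genes cbhA and cbhB had opposite signs, and neither call was kept in all alternatives. For cbhA the levels were 50.1 and 45.7 on straw and 6.71 and 16.4 under starvation (log2 difference 2.02 ± 0.50, edgeR adjusted p = 0.00797), beside 25.6 and 41.7 on glucose, and the call was lost without starvation A (1.51, edgeR adjusted p = 0.116). For cbhB they were 2935 and 690.2 under starvation and 491 and 72.6 on straw (log2 difference −2.78 ± 0.73, edgeR adjusted p = 0.0124), beside 13.4 and 6.39 on glucose. The cultures of each group differed by a large factor for cbhB, and its call was lost with DESeq2 (adjusted p = 0.121), without straw B (−1.97, edgeR adjusted p = 0.157) and without starvation A (−1.34, edgeR adjusted p = 0.18). The GH5 endoglucanase gene An01g11670 had the same sign as cbhB, at 109.7 and 57.8 under starvation and 51.2 and 9.76 on straw, and was not called (log2 difference −1.67 ± 0.66, edgeR adjusted p = 0.0943), but it was called lower in 4 alternatives, among them leaving out straw A or starvation B. The 3 genes of lytic polysaccharide monooxygenases in this list, which oxidise cellulose, had 0 to 5 reads in each library and were not tested. Genes of this family outside the list were not examined.

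β-Glucosidases split the last disaccharides of cellulose into glucose. Of 9 listed genes 5 of 8 tested were higher and none was lower, with a median of 2.63. The putative GH3 gene An11g00200 was at 11284 and 10866 on straw and 697 and 278 under starvation (log2 difference 4.42 ± 0.59, edgeR adjusted p = 2.64e-05), the fifth highest mean level of any gene on straw. That gene alone took 2.59% and 2.49% of the reads on genes on straw against 0.160% and 0.0639% under starvation. It was at 17.1 and 26.4 on glucose, so the starved cultures also stood above glucose. The GH3 gene bglA was at 4928 and 7169 on straw and 2243 and 1899 under starvation (log2 difference 1.48 ± 0.46, edgeR adjusted p = 0.0329). Both straw cultures were above both starved cultures, but the fold stayed under 3. It was called higher in 4 alternatives: without straw A, with the deposited RPKM ratio, with a fold of 2 and by adjusted p alone. Smaller members were An14g01770, at 340.2 and 255 on straw and 41.2 and 13.8 under starvation (log2 difference 3.33 ± 0.55), and An11g02100, at 112 and 92.8 on straw and 15.9 and 4.19 under starvation (3.17 ± 0.64). An07g07630 had 41 and 64 reads on straw and 10 and 3 under starvation, and its call was lost without straw A, straw B or starvation B (lowest log2 difference 1.75) and with DESeq2. The GH1 gene An04g03170 was at 237 and 85.1 on straw and 18.5 and 18.8 under starvation (3.01 ± 0.54), whereas the GH1 gene An03g03740 had the opposite sign, at 400.1 and 254 under starvation and 179 and 165 on straw (−1.0 ± 0.38, not called).

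Xyloglucan, a branched glucan that crosslinks cellulose in plant walls, is taken apart by α-xylosidases and fucosidases. Of 5 listed genes, all tested, 3 were higher and none lower (median 2.23). The α-xylosidase genes axlA and axlB were at 404 and 551 on straw and 12.5 and 30.3 under starvation (log2 difference 4.45 ± 0.54, edgeR adjusted p = 9.57e-06) and at 419 and 358 on straw and 113 and 41.7 under starvation (log2 difference 2.23 ± 0.51). For axlA both starved cultures lay below the 52.0 and 54.3 of glucose. An16g00540, a putative α-fucosidase gene, had 30 and 45 reads on straw and 1 and 1 under starvation, a pooled ratio of 21.8 (5.82 to 183). The other α-fucosidase gene, An16g02760, passed the adjusted p but not the fold, at 185 and 180.1 on straw and 96.0 and 62.6 under starvation (log2 difference 1.13 ± 0.38). The xyloglucanase gene eglC was at 44.5 and 10.6 on straw and 7.87 and 4.14 under starvation and missed the threshold (log2 difference 2.01 ± 0.68, edgeR adjusted p = 0.0512), which it passed in 7 other settings, among them leaving out straw B (2.76).

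Arabinan and galactan are side chains of pectin, a polymer that is scarce in straw of grasses. Of 12 listed genes 2 of 11 tested were higher in straw and 3 were lower (median −0.55, which turned to 0.34 without starvation A). The endo-arabinanase genes abnA and abnC were lower: abnA was at 2111 and 2724 under starvation and 422 and 329.9 on straw (log2 difference −2.75 ± 0.47, edgeR adjusted p = 0.000373) and abnC at 1352 and 882 under starvation and 183 and 118 on straw (log2 difference −2.97 ± 0.42, edgeR adjusted p = 4.96e-05). On glucose they were at 0 and 0.727 and 5.37 and 4.50, so straw cultures lay between glucose and starvation. The endo-galactanase gene galA was at 232 and 84.8 under starvation and 69.5 and 35.9 on straw (log2 difference −1.72 ± 0.49), a call lost without straw B (−1.28), without starvation A (−0.76), with DESeq2 and with the deposited RPKM. Of the arabinofuranosidase genes abfA was higher in straw, at 204 and 229 on straw and 8.08 and 7.09 under starvation (log2 difference 4.74 ± 0.56, edgeR adjusted p = 5.98e-06), whereas abfC was not called, at 384 and 327 on straw and 138 and 187 under starvation (1.07 ± 0.38). The β-galactosidase gene family split as well. lacE had 58 and 77 reads on straw and 2 and 1 under starvation, a pooled ratio of 26.1 (8.75 to 128), and was higher, while lacA, at 1856 and 1588 on straw and 619 and 798 under starvation (1.22 ± 0.50), lacB, at 136 and 207 under starvation and 61.1 and 89.0 on straw (−1.24 ± 0.45), and lacC, at 115 and 166 under starvation and 74.6 and 80.5 on straw (−0.91 ± 0.38), were not called.

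The pectin backbone list of 33 genes was thinly read, and 13 could be tested. Of these 1 was higher and 2 were lower (median −0.42), against 6.09% and 7.61% of all tested genes. An14g01130, encoding a rhamnogalacturonan-cleaving enzyme, was at 452 and 489 under starvation and 21.0 and 9.01 on straw (log2 difference −5.12 ± 0.51, edgeR adjusted p = 1.07e-06), beside 0 and 1.66 on glucose, and this call was kept without any of the 4 libraries. The rhamnogalacturonan acetyl esterase gene rgaeA had 37 and 9 reads under starvation and 3 and 10 on straw (log2 difference −2.62 ± 0.71), and the rhamnogalacturonan lyase gene rglB 29 and 33 reads on straw and 1 and 4 under starvation (2.85 ± 0.87). Each of the latter calls was lost without straw A, without straw B and without starvation A, and that of rglB also with DESeq2. Exo-polygalacturonase genes, which trim the pectin chain from its end, were not separated by the rule: pgaX was at 89.1 and 128 under starvation and 59.4 and 84.3 on straw (log2 difference −0.63 ± 0.41) and pgxB at 132 and 165 under starvation and 45.4 and 64.2 on straw (−1.47 ± 0.43, edgeR adjusted p = 0.0254, under the fold of 3, and called lower without starvation A).

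Inulin and sucrose are storage and transport carbohydrates of plants. All 3 tested genes of this list were higher in straw: the exo-inulinase gene inuE, at 331 and 447 on straw and 24.6 and 25.7 under starvation (log2 difference 3.89 ± 0.46, edgeR adjusted p = 6.54e-06), the invertase gene sucA, with 32 and 25 reads on straw and 1 and 1 under starvation (pooled ratio 16.5 (4.37 to 139.9)), and the intracellular invertase gene sucB, with 21 and 52 reads on straw and 3 and 4 under starvation (log2 difference 2.46 ± 0.69). The call of inuE was kept in all alternatives, that of sucA was lost without straw A or starvation A, and that of sucB without straw B, without starvation A and with DESeq2. In galactomannan breakdown the α-galactosidase genes aglB, at 299 and 213 on straw and 63.3 and 42.6 under starvation (2.18 ± 0.49), and aglC, at 949 and 1246 on straw and 201 and 417 under starvation (1.78 ± 0.45), were higher, and aglC lost its call without straw B (1.57) or starvation A (1.37). The β-mannosidase gene An12g01850 was at 102 and 116 on straw and 95.9 and 153 under starvation (−0.24 ± 0.38). Starch genes did not differ by the rule: glucoamylase gene glaA was at 2454 and 2695 on straw and 3565 and 3620.0 under starvation (−0.55 ± 0.51) beside 8058 and 9945 on glucose, and the α-glucosidase genes aglU and agdB had log2 differences of −0.14 and −0.50.

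Added up, the 9 lists of plant polysaccharides took 10.6% and 8.89% of the reads on genes on straw against 2.98% and 2.34% under starvation. Both straw cultures were well above both starved ones on this measure, and glucose cultures stood at 0.175% and 0.201%. As these lists hold mainly genes tabulated because they rose, the sum is not independent evidence either. The largest part was that of the β-glucosidase genes, 4.06% and 4.48% on straw against 0.826% and 0.604% under starvation. Most of it came from An11g00200 and from bglA, which was not called. The 6 genes of xylan side groups took 2.70% and 1.76% of the reads on genes on straw against 0.141% and 0.105% under starvation, and the 9 of the backbone 1.40% and 0.789% of the reads on genes on straw against 0.0199% and 0.0156% under starvation. For cellulose chain genes the same sums, 0.708% and 0.196% of the reads on genes on straw against 0.754% and 0.185% under starvation, did not separate the groups, because cbhB held most of the starved reads.

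**Figure D3:**
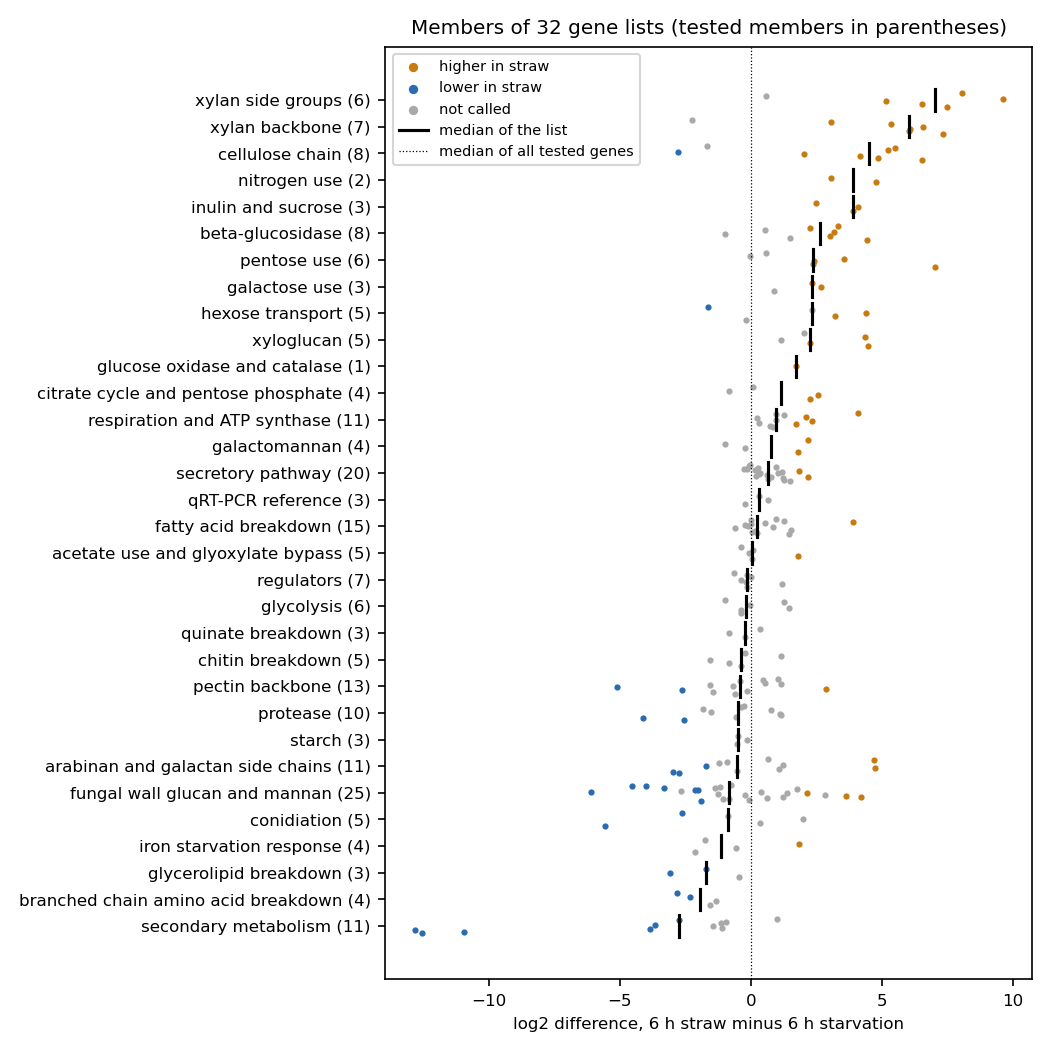
Log2 difference between 6 h straw and 6 h starvation (horizontal axis) of each tested member of 32 gene lists (rows, with the number of tested members), coloured by call, with a bar at the median of the list and a dotted line at the median of all tested genes (0.01). Lists of xylan breakdown have the highest medians, 7.0 for side groups and 6.04 for the backbone, and secondary metabolism the lowest, −2.76. All 11 members of the secondary metabolism list were called higher under 6 h starvation than on glucose.

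None of the tested regulator genes was called. No gene named araR, for the arabinose regulator that the study names beside XlnR, was in the list. Of 9 listed regulators 7 were tested, with log2 differences from −0.66 to 1.19 and a median of −0.17. The xylanase regulator gene xlnR was at 121 and 127 on straw and 137 and 129.5 under starvation (log2 difference −0.17 ± 0.38, edgeR adjusted p = 0.826), beside 6.59 and 12.5 on glucose, below both 6 h groups. The repressor gene creA was at 18.6 and 15.4 on straw and 6.13 and 8.07 under starvation (1.19 ± 0.50), and both straw cultures were above both starved ones. For the other tested regulators the values were −0.21 for amyR of starch breakdown, −0.40 for prtT of proteases, 0.01 for pacC of pH response, −0.16 for facB of acetate use and −0.66 for cpcA of amino acid synthesis. areA and An01g00160 had no read in any library. This held for 3453 of the 15431 gene rows, and whether such genes are silent was not tested. An uncalled difference with SEs of 0.369 to 0.497 does not show equal expression.

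Sugar transporter genes were divided. Among 5 tested genes 2 were higher in straw and 1 was lower. An11g01100 was at 314 and 344 on straw and 12.2 and 17.8 under starvation (log2 difference 4.40 ± 0.50, edgeR adjusted p = 4.58e-06) and An02g03540, whose orthologues carry glucose and mannose, at 99.3 and 86.5 on straw and 9.40 and 9.89 under starvation (log2 difference 3.19 ± 0.44, edgeR adjusted p = 3.47e-05). An11g02020 was lower, at 203 and 110.2 under starvation and 75.5 and 33.4 on straw (log2 difference −1.63 ± 0.44), a call lost without straw B (−1.13), without starvation A (−1.08), with total reads on genes as the only scaling and with the deposited RPKM. The most strongly expressed of the list, An12g07450, was at 3709 and 5593 on straw and 5560.0 and 4573 under starvation (−0.19 ± 0.54, not called) against 116 and 47.6 on glucose. An15g01500 missed the threshold at 28.7 and 52.2 on straw and 9.61 and 5.42 under starvation (log2 difference 2.33 ± 0.80, edgeR adjusted p = 0.0547), and passed it in 9 other settings.

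A further group of genes was high on glucose and on straw and low under starvation. Nitrate reductase gene niaD, which starts nitrate use, was at 308 and 226 on straw and 8.61 and 10.3 under starvation (log2 difference 4.75 ± 0.48, edgeR adjusted p = 1.23e-06), with 723 and 438 on glucose. The NADP glutamate dehydrogenase gene gdhA, which fixes ammonium into glutamate, was at 344 and 339 on straw and 40.4 and 37.8 under starvation (log2 difference 3.05 ± 0.41, edgeR adjusted p = 2.94e-05), with 891 and 1146 on glucose. Both straw cultures were below both glucose cultures, and both starved cultures far below straw. The study's description column covers the first part of the gene set and describes 852 tested genes, of which 62 (7.28%) were higher and 62 lower. From it groups were picked after their values had been seen, so they are given as descriptions. Among them are 3 tested genes for urea use, of which the putative urease gene An01g03550, at 52.9 and 68.3 on straw and 6.87 and 12.3 under starvation (log2 difference 2.62 ± 0.43), and the urea transporter gene An01g03790, with 28 and 22 reads on straw and 0 and 1 under starvation (pooled ratio 29.0 (4.98 to 1169)), were higher, and An02g01610 was not called (0.47). The call of An01g03790 was lost without straw A or starvation A. Both tested amino acid transporter genes were higher, An01g09730 at 45.1 and 47.1 on straw and 6.34 and 8.35 under starvation (2.58 ± 0.57) and An01g13290 at 32.5 and 38.2 on straw and 2.30 and 7.57 under starvation (2.84 ± 0.73, lost without straw B or starvation A).

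Sterol genes, which make the ergosterol of fungal membranes, were read from the same descriptions. Of 4 tested genes 3 were higher in straw. The C14 sterol reductase gene An01g07000 was at 395 and 512 on straw and 14.3 and 28.1 under starvation (log2 difference 4.38 ± 0.46, edgeR adjusted p = 1.81e-06), with 359 and 298 on glucose. An01g03350, a putative C-8 sterol isomerase gene, was at 75.3 and 39.5 on straw and 2.48 and 9.80 under starvation (log2 difference 3.16 ± 0.73, lost without starvation A). An01g02810, a C-22 sterol desaturase gene, had 23 and 63 reads on straw and 1 and 1 under starvation (pooled ratio 25.0 (6.70 to 209)), and differed from the others by its low level on glucose, 0.986 and 4.96. The remaining gene, An02g05150, was not called (0.40 ± 0.66). None of 14 tested genes described with the ribosome was called, and their median was 0.50.

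In mitochondria the electron transport chain passes electrons to oxygen, and alternative oxidase offers a shortcut past its later complexes. Of 11 tested genes of respiration and ATP synthase 4 were higher in straw and none lower, and all 11 had a positive log2 difference (median 0.96). The alternative oxidase gene aox1 differed most, at 1000 and 965 on straw and 64.2 and 44.9 under starvation (log2 difference 4.08 ± 0.55, edgeR adjusted p = 2.63e-05), with 819.5 and 1492 on glucose. Cytochrome c gene cyc was at 369 and 285 on straw and 54.7 and 91.9 under starvation (log2 difference 2.10 ± 0.42), with 29.3 and 51.0 on glucose. The ATPase subunit gene An01g10880 (1.72 ± 0.43) lost its call without straw B or starvation A, and An01g06180 (2.31 ± 0.75), for ubiquinol-cytochrome c reductase, without straw A (1.18) or starvation A, with DESeq2 and with only the 4 libraries in the fit. In the citrate cycle the citrate synthase gene citA was at 246 and 337 on straw and 85.4 and 30.5 under starvation (2.24 ± 0.48) and the isocitrate dehydrogenase gene icdA at 345 and 974 on straw and 89.6 and 125 under starvation (2.57 ± 0.47, 1.63 without straw B). Pyruvate carboxylase gene pyc (−0.86 ± 0.38) and glucose-6-phosphate dehydrogenase gene gsdA (0.06 ± 0.42) were not called.

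**Figure D4:**
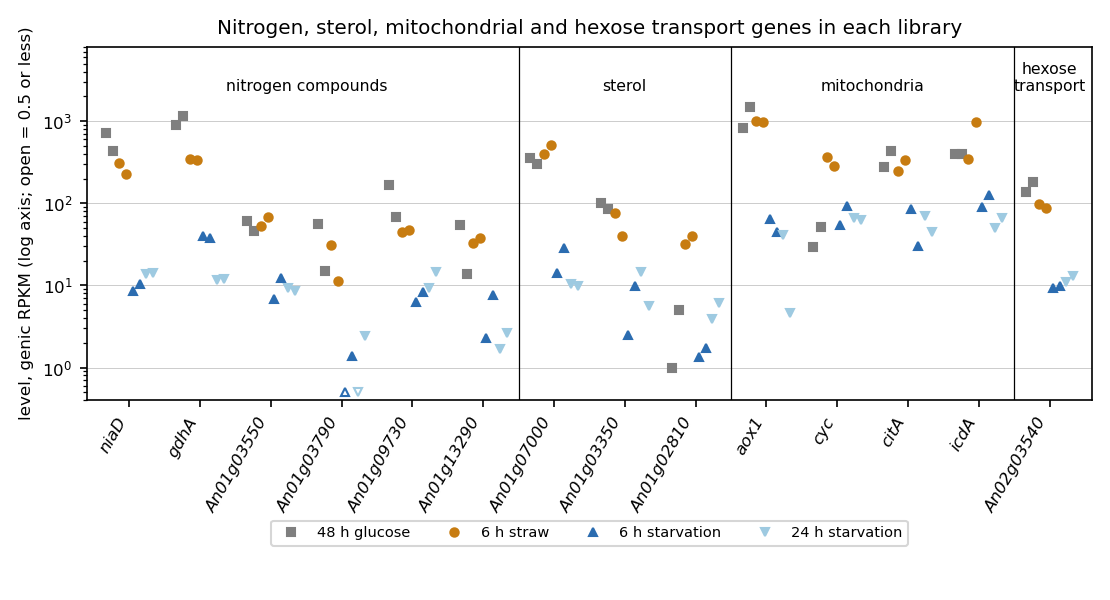
Level in each library of 14 genes of nitrogen use, sterol synthesis, mitochondria and hexose transport, in genic RPKM on a log axis, with 2 points for each condition and open symbols for levels of 0.5 or less. The 6 h straw cultures (orange circles) lie above the 6 h starvation cultures (blue triangles) for all 14 genes, for example 226 and 308 against 8.61 and 10.3 for niaD.

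Fatty acids, acetate and sugars feed the central pathways of carbon use. Of 15 tested genes of fatty acid breakdown 1 was higher, near the 6.09% of all tested genes, and none lower (median 0.21). All 15 were called higher than glucose on straw and 11 under starvation, so this count is not independent of how the list was chosen. The β-oxidation gene An14g00990 was at 636 and 703 on straw and 346 and 809 under starvation (0.16 ± 0.42) against 15.3 and 21.8 on glucose. The called member An13g00590, with 25 and 27 reads on straw and 1 and 1 under starvation (pooled ratio 15.1 (3.97 to 128)), lost its call without straw A or starvation A. The putative isocitrate lyase gene An01g09270, the entry to the glyoxylate bypass, was at 2025 and 5083 on straw and 2466 and 4300.0 under starvation (0.02 ± 0.52), with overlapping cultures and 283 and 489 on glucose. Of the acetate list 1 of 5 was higher, An15g01860 at 558 and 618 on straw and 157 and 168 under starvation (log2 difference 1.79 ± 0.46, lost without straw B). All 5 were called higher than glucose on straw and 4 under starvation, so the same limit holds. None of 6 tested glycolysis genes was called (median −0.20). The 6-phosphofructokinase gene pfkA came closest, at 95.3 and 105 on straw and 36.1 and 33.2 under starvation (log2 difference 1.46 ± 0.41, edgeR adjusted p = 0.0174), below the fold of 3, and the glyceraldehyde-3-phosphate dehydrogenase gene gpdA, at 1365 and 802 on straw and 632 and 211 under starvation (1.28 ± 0.50), was called higher without starvation A (2.32).

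Breakdown of amino acids, glycerolipids and proteins held calls toward starvation and none toward straw. All 4 genes of branched chain amino acid breakdown had lower levels on straw in both cultures, and 2 were called: An09g02710 was at 172 and 149.9 under starvation and 29.4 and 36.8 on straw (log2 difference −2.32 ± 0.40, edgeR adjusted p = 0.000374, lost with the deposited RPKM) and An13g03150 at 84.4 and 38.7 under starvation and 15.4 and 5.30 on straw (log2 difference −2.81 ± 0.61, lost without straw B or starvation A). Of 3 glycerolipid genes 2 were lower, An04g03590 with 14 and 19 reads under starvation and 1 and 6 on straw (−3.11 ± 0.74) and An18g03170 at 316 and 426 under starvation and 144 and 92.7 on straw (−1.71 ± 0.40, lost without straw B or starvation B and with the deposited RPKM). These lists were chosen by the study from genes raised against glucose in these libraries, with both terms enriched at 6 h starvation and not at 6 h straw. All 4 and all 3 members were called higher than glucose under 6 h starvation, against 1 of each list on straw. Their direction is therefore not independent evidence. Among 10 tested protease genes 2 were lower, against 7.61% of all tested genes, and none higher. Both straw cultures lay above both starved ones for 3 of the 10 and below them for 2, against 29.8% and 24.7% of all tested genes. The largest difference toward straw was 1.14, for EPR, without a call. The aspartic protease gene pepA had 38 and 24 reads under starvation and 7 and 11 on straw (−2.57 ± 0.56, lost without straw B), and proctase-A had 4 and 99 reads under starvation and 2 and 10 on straw (−4.11 ± 0.98), at −0.17 without starvation B, and lost its call also without straw A or straw B. The vacuolar protease gene pepE was at 714 and 899 on straw and 965 and 1072 under starvation (−0.40 ± 0.38, not called). Sorbitol dehydrogenase gene An01g03480, chosen after its values had been seen, was at 7432 and 7957 under starvation and 1037 and 1476 on straw (log2 difference −2.68 ± 0.47, edgeR adjusted p = 0.0004) and at 6761 and 8071 on glucose.

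Fungal walls are built of chitin, glucans and mannans. Of 25 tested genes acting on wall glucan and mannan 3 were higher and 7 lower in straw (median −0.86), against 6.09% and 7.61% of all tested genes. The 3 higher ones build or remodel the wall: the glucanosyltransferase gene gelE was at 298 and 510.0 on straw and 25.1 and 15.7 under starvation (log2 difference 4.21 ± 0.47, edgeR adjusted p = 3.82e-06), the glucanotransferase gene bgtE at 489.9 and 309 on straw and 20.9 and 41.9 under starvation (log2 difference 3.62 ± 0.45, edgeR adjusted p = 1.15e-05), and the putative chitin-glucanotransferase gene crhF at 46.7 and 45.8 on straw and 9.71 and 10.2 under starvation (log2 difference 2.13 ± 0.67). The call of crhF was lost without each of the 4 libraries in turn (edgeR adjusted p from 0.0981 to 0.162) and with DESeq2. Of the 7 lower ones 6 are annotated as glucanases, mannanases or mannosidases, and 3 of these are putative α-mannosidase genes of family GH92: An16g02910, at 243 and 396 under starvation and 20.9 and 20.2 on straw (log2 difference −4.01 ± 0.44, edgeR adjusted p = 2.74e-06), An08g03060, with 34 and 20 reads under starvation and 0 and 4 on straw (−4.53 ± 0.68, −8.0 without straw B), and An08g08370, at 59.2 and 92.2 under starvation and 6.11 and 8.83 on straw (−3.33 ± 0.66). The putative α-1,6-mannanase gene An07g07700 was at 489 and 438 under starvation and 108 and 132 on straw (−2.01 ± 0.39, lost with the deposited RPKM), its family member dfgD had 13 and 15 reads under starvation and 5 and 6 on straw (−2.13 ± 0.69), and the exo-1,3-glucanase gene exgA was at 359 and 179.8 under starvation and 50.6 and 97.3 on straw (−1.92 ± 0.54). Starved cultures were above straw cultures for each of these genes, but the call of dfgD was lost without each of the 4 libraries in turn (edgeR adjusted p from 0.0537 to 0.326), with DESeq2 and with the deposited RPKM. That of exgA was lost without straw A (−1.54), straw B (−2.49) or starvation A (−1.29) and with the deposited RPKM. The remaining lower gene, agsD, encodes a putative α-1,3-glucan synthase and was at 43.0 and 17.2 under starvation and 0.979 and 0.150 on straw (log2 difference −6.10 ± 0.69, edgeR adjusted p = 4.26e-06). The number of lower members became 5 without straw B or starvation A. Among the 15 uncalled members, transferase genes had both signs, with log2 differences of −1.26 for bgtA, −0.24 for bgtC and 1.22 for gelA. So did genes of wall-cutting enzymes, with −0.86 for engA and 1.75 for dfgG, of the family of dfgD. None of 5 tested chitin genes was called, and the chitinase gene chiB was at 27.3 and 21.2 on straw and 31.0 and 27.9 under starvation (−0.37 ± 0.47).

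Genes of secondary metabolism, the synthesis of pigments, toxins and other products not needed for growth, held some of the largest differences. Of 11 tested genes 6 were lower and none higher in straw (median −2.76, and the same with unread genes at their bound). The list was chosen by the study from these libraries. Against glucose all 11 were called higher under 6 h starvation and 5 on straw, so their direction is not independent evidence. In the study's description column 3 tested genes were described with secondary metabolism, a group picked after values had been seen. Of these 1 was lower and 0 higher in straw (median 0.32). An11g07330 had 1001 and 399 reads under starvation and 0 and 0 on straw, at least 804-fold lower in straw when a count of 3 over the group is taken as the limit, and An11g07310 1074 and 138 reads under starvation and 0 and 0 on straw, at least 696-fold lower. An11g07320 had 1178 and 403 reads under starvation and 1 and 0 on straw, a pooled ratio of 2724 (488 to 107643). The genes without a call in this list, such as An06g01300 at 236 and 141 under starvation and 123 and 57.3 on straw (−1.14 ± 0.45), were expressed in both groups.

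These 3 genes sit side by side, and genes lower in straw were often neighbours. In the gene order of the RefSeq annotation (ASM285v2), in which 6076 tested genes could be placed, 82 of 460 genes called lower (17.8%) had an adjacent gene that was also lower, against 5.31% of the other tested genes. For genes called higher the shares were 7.67% and 4.92%. Runs of 4 or more adjacent genes with the same call numbered 5, holding 28 genes, and all 5 were lower in straw. The longest ran over 8 genes from An01g06820 to An01g06890. The study describes An01g06860 by orthologues with dioxygenase activity, An01g06840 as a putative acid-CoA ligase and An01g06830 as a 3-dehydrosphinganine reductase. An01g06850 had 2673 and 1804 reads under starvation and 2 and 6 on straw (log2 difference −9.93 ± 0.75, edgeR adjusted p = 7.31e-08), and An01g06860 1656 and 1338 reads under starvation and 3 and 2 on straw (log2 difference −9.93 ± 0.76, edgeR adjusted p = 7.31e-08). Over the whole run the straw libraries held 0 to 9 reads a gene and the starvation libraries 247 to 2673. Unlike the genes of An11g07310 to An11g07340, which had 0 or 1 read on glucose, this run was expressed on glucose, with 614 and 1249.7 for An01g06850. The calls of both runs were kept without each of the 4 libraries.

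**Figure D5:**
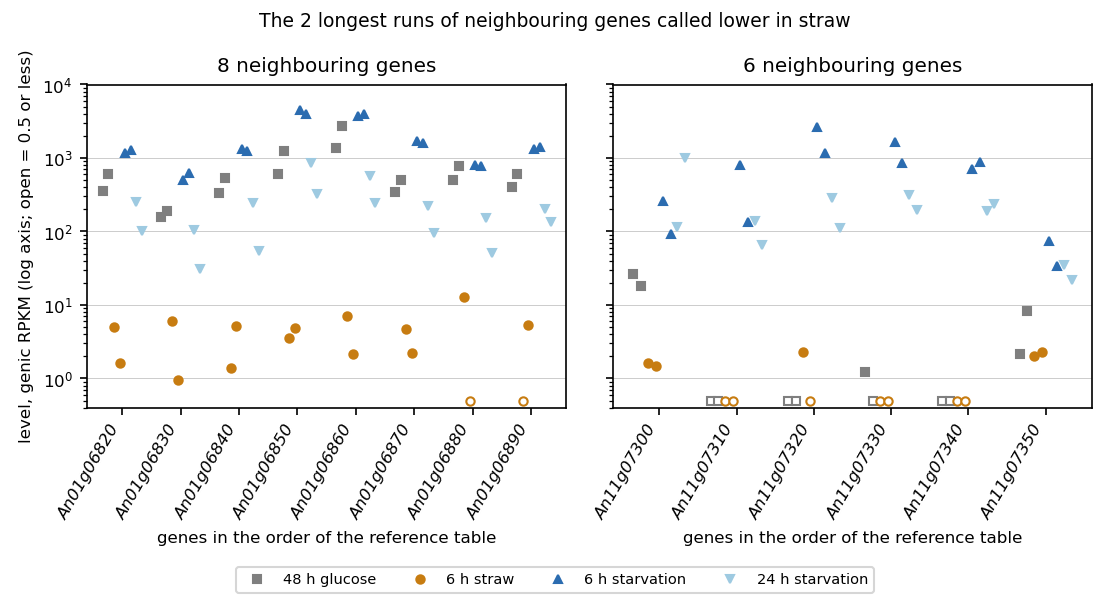
Level in each library of the genes of the 2 longest runs of neighbours called lower in straw, 8 genes on the left and 6 on the right, in genic RPKM on a log axis, with genes in reference order on the horizontal axis, 2 points for each condition and open symbols for levels of 0.5 or less. The straw cultures (orange circles) stand at the bottom in both panels, and the glucose cultures (grey squares) are high on the left and at or near 0 for the 4 inner genes on the right.

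Other runs were An11g07010 to An11g07050, An11g06420 to An11g06460 and An16g05910 to An16g05940. In the first of these An11g07040 had 370 and 285 reads under starvation and 0 and 0 on straw, at least 376-fold lower in straw, and it stood at 15257 and 14888 genic RPKM in the 24 h starvation cultures. Calls were lost without straw B for An11g06420, An11g06460 and An16g05940, and without starvation A for An11g06460. Single genes of the same size of difference were An09g00840, at 5596 and 2549.6 under starvation and 4.25 and 7.83 on straw (log2 difference −9.25 ± 0.83, edgeR adjusted p = 2.97e-07), An09g01740, with 900 and 122 reads under starvation and 1 and 0 on straw (pooled ratio 1761 (315 to 69607)), and An09g00570, with 149 and 497 reads under starvation and 1 and 0 on straw (1113 (199 to 44023)). Also among the 15 largest were An09g00520 and TID_39253, unread on straw and at least 184-fold and 242-fold lower, An11g07340, An09g02000 and An13g01510, also unread on straw and at least 277-fold, 82.1-fold and 59.7-fold lower, and An09g01690, with 562 and 94 reads under starvation and 1 and 0 on straw. Starvation A and B differed widely in some of these, as in An09g01740.

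Of the 15 genes with the largest differences toward straw, several carry no description in the sources used. An18g01570 had 101 and 312 reads on straw and 0 and 0 under starvation, at least 79.9-fold higher, An11g06300 39 and 132 reads on straw and 0 and 0 under starvation, at least 33.1-fold, and An18g01290 23 and 83 reads on straw and 0 and 0 under starvation, at least 20.5-fold. Glucose and 24 h starvation left An11g06300 without a read as well. An12g10390, listed under carboxylesterase activity, was at 1522 and 1799 on straw and 10.8 and 16.0 under starvation (log2 difference 6.89 ± 0.56, edgeR adjusted p = 1.06e-07), and An06g00560 at 1035 and 928 on straw and 6.19 and 11.4 under starvation (log2 difference 6.75 ± 0.51, edgeR adjusted p = 7.31e-08). An02g03330, listed under acetate-CoA ligase activity, was at 253 and 332 on straw and 2.14 and 2.82 under starvation (log2 difference 6.78 ± 0.63). An02g00740, whose orthologues are extracellular, had 52 and 225 reads on straw and 1 and 0 under starvation (pooled ratio 161 (28.6 to 6374)). The remaining 3 of the 15 outside the lists were An03g05830, An16g01000 and An11g03680, with pooled ratios of 114 (20.3 to 4539), 123 (21.9 to 4883) and 124 (34.1 to 1027). Without starvation A the fitted log2 difference of An11g03680 moved from 6.6 to 10.19. An01g00630, an oxidoreductase gene chosen after its values had been seen, was at 2954 and 2620.4 on straw and 45.7 and 40.1 under starvation (5.94 ± 0.59), next to An01g00620, at 2019 and 2264 on straw and 427 and 441 under starvation (2.24 ± 0.41).

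The most strongly expressed genes were largely common to both groups. TID_138531, which carries no CBS identifier, had the highest level per length in each of the 4 libraries, taking 6.69% and 2.44% of the reads on genes on straw against 7.39% and 3.14% under starvation, and differed by −0.28 ± 0.62 on the log2 scale (not called). An16g04600, An19g00210 and TID_37299 were among the top 5 of both groups and had log2 differences of −0.51, −0.37 and −0.50. The fifth place was taken by An11g00200 on straw. Under starvation An15g07230 stood second, at 13293 and 28094 under starvation and 1224 and 274 on straw (log2 difference −4.85 ± 0.68, edgeR adjusted p = 4.47e-05), with 88.5 and 50.2 on glucose.

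Markers of spore formation had few reads. The 6 genes of the conidiation list, of which 5 were tested, summed to 27.1 and 21.7 on straw and 64.3 and 36.8 under starvation, and none exceeded 23 reads in a library. The conidiophore regulator gene brlA had 8 and 1 reads under starvation and 0 and 0 on straw, at least 5.17-fold lower in straw, and lost its call without straw A, straw B or starvation A. The laccase-like gene mcoB had 23 and 14 reads under starvation and 5 and 5 on straw (log2 difference −2.62 ± 0.63, lost without straw B). brnA, abaA and ctcB were not called. The reference genes that the study used for qRT-PCR were not called either, with log2 differences of −0.23 for actin gene actA, 0.29 for sarA and 0.63 for An08g05910. In the secretory pathway, which exports the enzymes above, 2 of 20 tested genes were higher, near the 6.09% of all tested genes, and none lower (median 0.63). They were the SEC61 complex gene An01g11630, at 635 and 1103 on straw and 149 and 223 under starvation (2.19 ± 0.47, lost without straw B), and the protein disulphide isomerase gene tigA, at 371 and 451 on straw and 84.8 and 136 under starvation (1.84 ± 0.39, lost without starvation A). The ER chaperone gene bipA passed the adjusted p but not the fold, at 256 and 208 on straw and 104 and 90.7 under starvation (1.18 ± 0.37). The iron starvation list (1 of 4 higher, An05g00220, a call lost whichever of the 8 libraries was left out), the quinate list (0 of 3) and the catalase gene An01g01550 (1.71 ± 0.46, lost without straw B or starvation B) complete the lists.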

How the data were processed

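RNA was depleted of ribosomal RNA and sequenced on a SOLiD instrument, and the authors mapped reads with LifeScope and made the deposited counts per gene of the strain ATCC 1015 models (Aspni5) with HTSeq from uniquely aligned forward reads. The deposited RPKM were made by the authors from these counts. Taking all rows of a library, summary rows included, as the divisor gave whole gene lengths to within 0.00217 bases for 11978 genes, so they were read as dividing by all reads. Comparisons used the counts, with 15431 genes, in edgeR 4.0.16 (R 4.3.3): reads on genes as library size, filterByExpr, TMM factors and 1 quasi-likelihood fit of the 8 libraries by group, Benjamini-Hochberg adjustment over 6357 tested genes, and a call at adjusted p under 0.05 with a fold of at least 3. For genes unread in a group, folds are bounds at 3 counts over that group. DESeq2 1.42.0, other scalings, filters, thresholds, the letter as a block and leaving out each library were alternatives. Named were the 15 largest called differences each way (mean of 50 reads or more, no overlap), up to 6 called and 3 uncalled members of each list, all members of 6 lists and the 5 highest levels per group. Genes outside this rule are said to be chosen after their values were seen or stand for a count. Members and lists were chosen with earlier results of these data known. Nonunique reads were not counted, so genes with near-identical copies may be understated. Straw at 24 h was not analysed here.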

Additional observations from a re-analysis of the deposited data

How the results depend on the processing

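The numbers of genes called were 387 higher and 484 lower. Leaving out each library in turn gave 249 to 418 higher and 233 to 501 lower, with both lowest values without straw B, the deepest library. The other alternatives gave 304 to 478 higher and 326 to 579 lower. DESeq2 called 304 higher and 420 lower, the deposited RPKM ratio 464 and 326, and the cause of these shifts was not tested. With the culture letter as a replicate block the counts were 404 and 493. The A minus B differences of straw and starvation correlated at 0.276 across genes, those of other pairs of groups at −0.066 to 0.194, and no source says that a letter marks a shared day, so the letters were not treated as pairs. No named gene with a call changed sign in any alternative. Reads on genes limit what can be seen: 9074 of 15431 genes had too few reads to test, and genes without a call may still differ.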
